A study of Mus musculus with 2 samples.

Results

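The 10 genes described here encode MG53 itself (Trim72) and proteins known from the repair of torn cell membranes (Dysf, Cavin1, Cav1, Anxa1, Anxa2, Anxa5, Anxa6, Anxa7 and Capn1). They were taken by symbol from the 32285 genes that both count tables list, and all 10 were found. The study asked what raised MG53 does in the injured intestine, and the comparison here is between 1 single-cell library from wild type (WT) mice and 1 from MG53-TG mice, which carry the MG53 transgene and overexpress it throughout the body. Both groups received 2.5% dextran sulfate sodium (DSS), which injures the gut lining, and live cells with the epithelial surface protein EpCAM were sorted from intestinal crypts on day 7. WT mice were littermates of MG53-TG mice. The study describes several mice per genotype, but the files do not assign cells to mice, and neither the labels nor the methods give their age or the promoter that drives the transgene.

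MG53 is a tripartite motif protein with ubiquitin ligase activity that is best known from heart and skeletal muscle, where it gathers vesicles at a membrane tear. Dysferlin (Dysf) drives calcium-dependent fusion of those vesicles, cavin-1 and caveolin-1 (Cavin1, Cav1) build the caveolae that can bud off damaged membrane, annexins bind phospholipids when calcium enters and form a cap on the wound, and calpain-1 (Capn1) is a calcium-activated protease that cuts the membrane skeleton. In the gut epithelium, annexin A2 together with its partner S100A10 is also known from the membrane under the brush border and from cell junctions.

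A barcode was kept as a cell from 1354 UMIs (unique molecular identifiers, each 1 captured transcript) and 200 genes upward unless over 25% of its UMIs were mitochondrial, which left 6963 WT and 4941 MG53-TG cells after removal of doublets. Of these, 6119 WT and 4606 MG53-TG cells lay in epithelial clusters, with 105798125 and 89812208 UMIs. The cells formed 25 clusters, and 8 epithelial types could be named from markers. In WT 13.3% and in MG53-TG 11.7% of epithelial cells stayed unnamed. Epcam was detected in 97.9% and 97.5% of epithelial cells, but 11.5% of WT and 6.42% of MG53-TG cells were T cell-like despite the sort and were left out of the epithelial sums. Median depth was 14023 UMIs per WT cell and 17946 per MG53-TG cell, and 8 WT cells had the barcode of a kept MG53-TG cell. Levels are given in CPM, a gene's summed UMIs scaled to a common total of 1e6 UMIs over the cells of a library or type. With 1 library per genotype there is no replicate and no test, library and genotype cannot be told apart, and the intervals in parentheses, at 95%, cover counting error only. Because sums were used, fewer cells of a type and less RNA per cell cannot be told apart in the epithelial sums.

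Trim72, which lies at chr7:128003949-128011033 (plus strand, GRCm38), checks the genotype labels. The epithelial sum of WT held 63 Trim72 UMIs and that of MG53-TG 4556, or 0.595 CPM (0.458 to 0.762) against 50.7 CPM (49.3 to 52.2). The log2 ratio was 6.41 (6.05 to 6.80), the highest of the 14652 genes with at least 30 UMIs. By absolute size, 6 of these genes, all lower in MG53-TG, had a larger log2 ratio. The label MG53-TG thus stood on the library with the higher Trim72 level. The tables do not separate transcripts of the transgene from those of the mouse's own gene.

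Trim72 was past 1.5-fold higher in MG53-TG in all 8 named epithelial types, a size that 3.57% of genes reached in stem-like, 4.44% in absorptive progenitor-like, 3.09% in enterocyte-like, 2.74% in goblet-like, 5.5% in Paneth-like, 6.17% in tuft-like, 4.59% in enteroendocrine-like and 7.58% in secretory progenitor-like cells. Its levels in MG53-TG differed 9.33-fold between the highest and the lowest type. Enteroendocrine-like cells had 116 CPM (101 to 131) and enterocyte-like cells 104 CPM (98.9 to 109), and these intervals overlapped. Tuft-like cells followed with 60.0 CPM (52.6 to 68.1) and goblet-like cells with 46.8 CPM (44.3 to 49.4). Paneth-like cells at 35.9 CPM (31.0 to 41.5) and absorptive progenitor-like cells at 33.2 CPM (29.2 to 37.6) did not differ beyond counting error. The 2 lowest types were secretory progenitor-like cells at 21.3 CPM (15.8 to 28.2) and stem-like cells at 12.4 CPM (10.6 to 14.4). The stem-like cells were 2 clusters, 1 of 770 cells led by genes of cell division such as Nusap1, Aurkb and Top2a, with 14.1 CPM in MG53-TG (11.6 to 16.8), and 1 of 760 cells led by Olfm4, with 9.97 CPM (7.57 to 12.9). The secretory progenitor-like cells were also led by such genes, Mki67 among them, and neither they nor the dividing stem-like cluster had a marker of their own type among their 10 leading genes. At a finer clustering (Leiden resolution 2), a cluster of 253 WT and 121 MG53-TG cells led by Nusap1, Ube2c and Aurka was named absorptive progenitor-like. The names of dividing cells thus depended on the clustering. The transgenic library thus had its lowest Trim72 level in the stem-like cells and its highest in 2 differentiated types.

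The WT levels were near the detection limit in every type. Goblet-like WT cells held 19 Trim72 UMIs (1.03 CPM), absorptive progenitor-like cells 15 (0.954 CPM), stem-like cells 12 (0.493 CPM), enterocyte-like cells 7 (0.473 CPM) and Paneth-like cells 3 (0.248 CPM, 0.0511 to 0.724). No UMI was seen in 285 enteroendocrine-like, 230 tuft-like or 52 secretory progenitor-like WT cells. Where WT had UMIs, the log2 ratio ran from 4.65 (3.81 to 5.63) in stem-like cells to 7.78 (6.73 to 9.10) in enterocyte-like cells. Against the value of 3 UMIs in the WT cells of the type, Trim72 in MG53-TG was at least 86.2-fold higher in enteroendocrine-like, at least 51.6-fold higher in tuft-like and at least 8.73-fold higher in secretory progenitor-like cells. These bounds leave out the counting error of MG53-TG, and the lower limits of the log2 ratio with it were 6.12, 5.38 and 2.77.

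**Figure D1:**
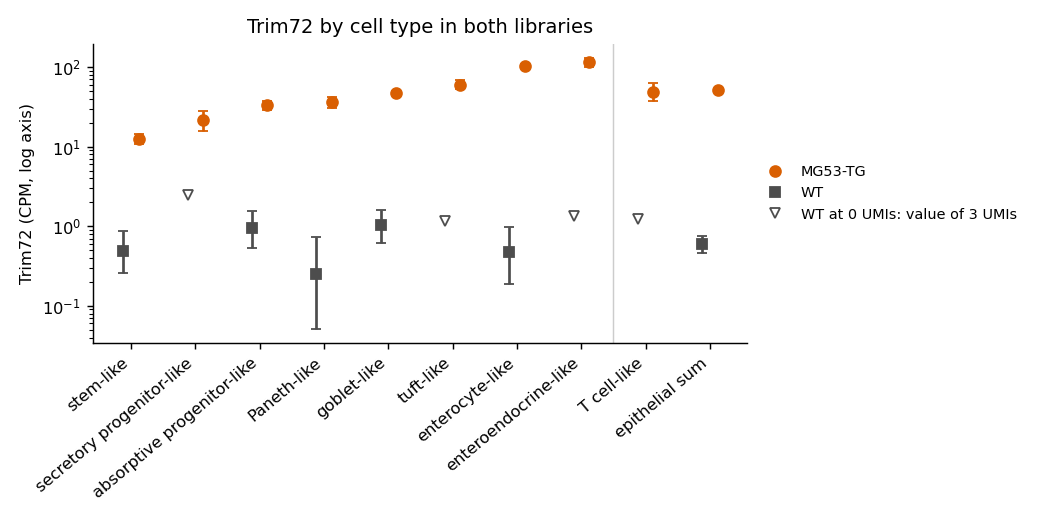
Trim72 level in CPM on a log axis (vertical) in 8 epithelial types, T cell-like cells and the epithelial sum (horizontal), with circles for MG53-TG, squares for WT and 95% Poisson intervals of counting error as bars, and open triangles at the value of 3 UMIs where WT held 0. All MG53-TG values lie above all WT values, from 12.4 CPM in stem-like to 116 CPM in enteroendocrine-like cells.

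The level also differed inside the named types. Among enteroendocrine-like MG53-TG cells, the cluster led by Afp, Tph1, Chga and Tac1, genes of serotonin-making enterochromaffin cells among them, had 249.97 CPM (211 to 294), and the cluster led by the hormone genes Cck, Gcg and Nts had 55.5 CPM (43.3 to 70.2). Among enterocyte-like cells, the clusters led by Enpp7 and Plb1 and by Clca4a and Ly6m had 133 CPM (122 to 144) and 139 CPM (115 to 166), whereas the cluster led by Sult6b2 and Gm3776 had 88.4 CPM (82.7 to 94.4). The last is also the deepest of the 3, with a median of 21108 UMIs per cell over both libraries against 6718 and 3812. The cluster of enteroendocrine-like cells with the higher level was likewise the shallower of that pair, with a median of 6142 UMIs against 9852. The third enteroendocrine-like cluster, led by Sst and Iapp, had 103 CPM (62.3 to 162) from 19 UMIs in 14 MG53-TG cells at a median of 9334 UMIs.

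The Trim72 level varied with the depth of MG53-TG cells, and was not lower in deeper cells of every type. Over all types, which differ in depth themselves, it went from 111 CPM in epithelial cells under 5000 UMIs to 34.4 CPM in those with 40000 or more. Enteroendocrine-like cells had 210 CPM in 94 cells under 10000 UMIs and 87.4 CPM in 75 cells of 10000 to 20000 UMIs, goblet-like cells went from 75.5 CPM under 10000 UMIs to 44.1 CPM from 20000 upward, and enterocyte-like cells from 122 to 96.3 CPM. Stem-like cells had 10.1 CPM between 10000 and 20000 UMIs and 12.8 CPM from 20000 upward, with 0 UMIs in 20 shallower cells, and secretory progenitor-like cells had 12.6 CPM, from 4 UMIs in 21 cells, and 23.1 CPM in the same 2 ranges. Absorptive progenitor-like cells had 39.4, 27.9 and 34.3 CPM in the 3 ranges from shallow to deep, the first from 7 UMIs, and tuft-like cells 73.6, 57.0 and 63.5 CPM. Between 10000 and 20000 UMIs enterocyte-like cells (118 CPM) stood above enteroendocrine-like cells (87.4 CPM), which reverses their order in the sums, and goblet-like cells had 46.6 CPM. The part of depth in the differences between types and clusters was not tested.

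Trim72 was spread unevenly over single MG53-TG cells. No UMI was found in 60.3% of the 4606 epithelial cells, while the 10% of cells with the most UMIs held 54.8% of them and single cells reached 19. In WT, 61 of 6119 cells had 1 UMI and 1 cell had 2. To compare cells at equal depth, the 575 enterocyte-like MG53-TG cells with at least 10000 UMIs were thinned to that number, and 355 shallower cells were left out. At a mean of 1.05 UMIs, 51.5% of these cells held no Trim72 and 6.78% held 4 or more, which gave a variance over mean of 2.25. For Capn1, with a mean of 0.522, 59.1% of the same cells held none, 0.870% held 4 or more and the variance over mean was 1.06. Anxa2 had a variance over mean of 2.11 at a higher mean of 4.60, and Anxa7 had 1.05 at a mean of 0.357. Of the 975 genes with a mean within 1.5-fold of that of Trim72, 31 had a larger variance over mean, and their median was 1.16.

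The comparison was repeated within single clusters and in other types. In 1149 cells of the largest goblet-like cluster, Trim72 had a variance over mean of 1.87 at a mean of 0.451, and 4 of 1793 genes with a like mean had a larger one. In the main enterocyte-like cluster (394 cells, Sult6b2 and Gm3776) the value was 2.33, exceeded by 11 of 1051 genes. Anxa2 had 1.36 in the goblet-like cluster and 1.46 in the enterocyte-like cluster, at means of 2.47 and 3.96. In absorptive progenitor-like cells Trim72 and Anxa2 both had 1.67, at means of 0.330 and 3.59. In 105 Paneth-like cells the value of Trim72 was 1.13 at a mean of 0.381, against a median of 1.16 over genes with a like mean. In stem-like cells the mean of 0.0800 was too low for this measure to be read. Cells of MG53-TG are not assigned to mice, so that a difference between mice and a difference between cells of 1 mouse cannot be told apart.

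**Figure D2:**
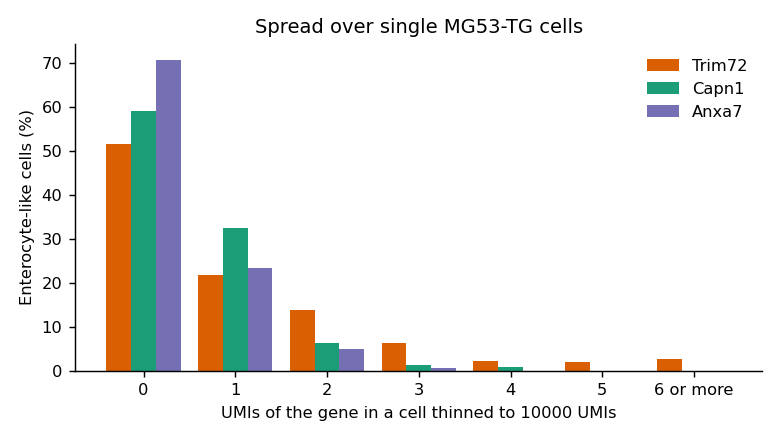
Percent of 575 MG53-TG enterocyte-like cells (vertical) with a given number of UMIs of Trim72, Capn1 or Anxa7 (horizontal) after each cell was thinned to 10000 UMIs. Trim72, with the highest mean of the 3, has 0 UMIs in 51.5% of cells, against 59.1% for Capn1 and 70.8% for Anxa7, and 6 or more in 2.61%, where Capn1 and Anxa7 have none.

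After thinning of every cell to 1354 UMIs, 7.77% of MG53-TG epithelial cells (7.02 to 8.58, Clopper-Pearson) and 0.114% of WT cells (0.0460 to 0.236) held a Trim72 UMI. Over 20 thinnings the MG53-TG share ran from 6.82% to 7.99% with a median of 7.22%, and the WT share from 0.0163% to 0.163% with a median of 0.0817%. Without thinning the shares were 39.7% and 1.01%, at median depths of 18642.5 and 15643 UMIs. Enteroendocrine-like and enterocyte-like cells of MG53-TG had the highest thinned shares, 15.5% (10.5 to 21.6) and 15.4% (13.1 to 17.9), while stem-like cells had 1.41% (0.570 to 2.89), Paneth-like cells 1.69% (0.206 to 5.99) and secretory progenitor-like cells 3.16% (0.656 to 8.95), which overlapped.

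Trim72 was also counted in T cell-like cells of MG53-TG. They held 57 Trim72 UMIs in 317 cells, or 49.0 CPM (37.1 to 63.5), and the 798 T cell-like cells of WT held none, so that the level was at least 39.3-fold higher by the same bound (lower limit of the log2 ratio 4.95), and 5.51% of genes were past 1.5-fold higher in this comparison. This was 96.7% of the epithelial level in the same library. Transcripts that mark epithelial cells stood far lower in these T cell-like cells, with Fabp1 at 2.72%, Reg3b at 3.47%, Agr2 at 2.88% and Epcam at 9.74% of their epithelial levels. After thinning, 5.99% of these T cell-like cells (3.65 to 9.20) held a Trim72 UMI, at a median depth of 3420 UMIs. Epcam was detected in 17.7% of them. The MG53-TG table lists no barcode under 500 UMIs, so Trim72 outside cells could not be read there. Where the Trim72 UMIs of the T cell-like cells came from was not tested.

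Gm15533 and Pycard, which lie at or near Trim72, did not rise with it. Gm15533, which overlaps Trim72 on the other strand, was at 2.92 CPM in WT cells and at 2.64 CPM in MG53-TG cells (log2 ratio -0.15, -0.40 to 0.10). Strand use in the counting is not given in the sources used here, so reads of these overlapping genes may not be fully separated. The neighbour Pycard, an inflammasome adaptor, had 1061 CPM in WT against 871 CPM in MG53-TG (log2 ratio -0.28, -0.30 to -0.27). Trim72 differed by 6.41 on the same scale.

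The genes whose level over the 8 named types of MG53-TG was most like that of Trim72 were Grina (Pearson r = 0.973), Slc52a3 (0.940), Plekhg6 (0.926), Mcur1 (0.915) and Abca1 (0.914), among 8431 genes with at least 20 CPM in 1 type. Grina, a membrane protein of the TMBIM family, ran from 7.28 CPM in stem-like to 79.5 CPM in enteroendocrine-like cells. These correlations describe 8 points that come from 1 library and share its depth and cell make-up.

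Of the 10 genes, 7 had at least 30 UMIs over both libraries in the epithelial sum and could be read, whereas Dysf, Cav1 and Anxa1 could not. Trim72 was past 1.5-fold higher in MG53-TG, as were 6.85% of all 14652 genes. None of the 7 was past 1.5-fold lower, a size that 2.96% of genes reached, and the other 6 lay within 1.5-fold. Among these 6, the interval of the ratio lay above 0 for Anxa5 (0.37) and Capn1 (0.15) and below 0 for Anxa2 (-0.09). The median log2 ratio of these 6 was 0.04, and that of all genes was 0.09. Scaling by the median of ratios would lower each log2 ratio of the epithelial sum by 0.0921.

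Dysferlin and caveolin-1 transcripts were not detected. Dysf and Cav1 had 0 UMIs in all 6963 WT and all 4941 MG53-TG cells, which allows an epithelial level of up to 0.0284 CPM for WT and up to 0.0334 CPM for MG53-TG. Cavin1 was counted 31 times in WT (0.293 CPM) and 27 times in MG53-TG (0.301 CPM), a log2 ratio of 0.04 (-0.76 to 0.83). Of the 31 in WT, 22 lay in Paneth-like cells, which held 11.5% of all epithelial UMIs, and of the 27 in MG53-TG, 4 did, with 5.76% of all UMIs. The Paneth-like levels were 1.82 CPM (1.14 to 2.75) and 0.773 CPM (0.211 to 1.98), which overlapped. Markers of other cells known for caveolae were read in the same sums. Of the 7 fibroblast markers 2 were detected in WT and 3 in MG53-TG (84 and 85 UMIs, of which 83 and 82 were Pdgfrb), with Col1a2, Col3a1, Dcn and Pdgfra at 0 in both. Of the 7 endothelial markers 5 were detected in each, with Cdh5 and Kdr at 0 and 158 and 171 UMIs in all. Of the 9 muscle markers 8 were detected in each, with 1094 UMIs in the WT sum (10.3 CPM) and 1096 in that of MG53-TG (12.2 CPM), of which 636 and 635 were Mylpf and 423 and 425 Acta1, both of skeletal muscle, and with Actg2 of smooth muscle at 0. Their part in the Cavin1 values was not tested.

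Anxa1, an annexin known from myeloid cells, was nearly absent from the epithelium. It had 6 epithelial UMIs in the WT library and 2 in that of MG53-TG, of which 3 and 2 lay in tuft-like cells. Over all kept WT cells there were 21 UMIs, and 14 of these came from 17 myeloid-like cells, at 99.95 CPM (54.7 to 168). The leading genes of that cluster include the mast cell genes Mcpt1, Mcpt2 and Cpa3 beside Lyz2 of myeloid cells. No cell of that cluster came from MG53-TG, so the level of Anxa1 in such cells could not be compared.

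Anxa2 (chr9:69453620-69491795, plus strand) was highest in the absorptive types and lowest in Paneth-like cells of both libraries. The WT and MG53-TG levels were 501 and 445 CPM in enterocyte-like cells, 408 and 352 CPM in absorptive progenitor-like, 297 and 258 CPM in goblet-like, 237 and 225 CPM in tuft-like, 177 and 161 CPM in secretory progenitor-like and 175 and 151 CPM in stem-like cells. The order of the 8 types was the same in both libraries. In the epithelial sum the values were 274 and 256 CPM (log2 ratio -0.09, -0.12 to -0.07). In 7 of the 8 types the ratio was within 1.5-fold.

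Paneth-like cells were the exception. Anxa2 was 30.9 CPM (27.9 to 34.2) in 251 WT cells and 14.1 CPM (11.1 to 17.7) in 118 MG53-TG cells, a log2 ratio of -1.13 (-1.52 to -0.77). Its partner S100a10 was 76.2 and 36.7 CPM there, a log2 ratio of -1.05 (-1.29 to -0.83). Paneth-like cells were also the type with the most genes past 1.5-fold lower, 17.5% of 8939 genes, against which the values of Anxa2 and S100a10 are to be read. The 12 enterocyte markers were lower too in these cells, at 1187 CPM in MG53-TG against 1888 CPM in WT, with all 12 lower in MG53-TG, and the 11 T cell markers were at 17.8 CPM in WT and 4.83 CPM in the MG53-TG library. Markers of other types did not all go that way, with goblet markers at 19706 and 23159 CPM (log2 ratio 0.23), enteroendocrine markers at 70.3 and 74.8 CPM (0.09), stem markers at 354 and 314 CPM (-0.17) and myeloid markers at 7.51 and 5.02 CPM (-0.58). The part of transcripts from other cells in the Anxa2 and S100a10 values was not tested. Anxa7 (19.7 and 16.4 CPM) and Capn1 (9.74 and 10.0 CPM) were within 1.5-fold in the same cells.

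Across the other types the ratios of Anxa2 and S100a10 were small and had the same sign in 6 of 7. The log2 ratios of Anxa2 and S100a10 were -0.22 and -0.19 in stem-like, -0.21 and -0.27 in absorptive progenitor-like, -0.17 and -0.15 in enterocyte-like, and -0.20 and -0.31 in goblet-like cells. In enteroendocrine-like cells Anxa2 was higher in MG53-TG, at 111 CPM against 84.5 CPM (log2 ratio 0.39, 0.10 to 0.68), and S100a10 was 160 and 181 CPM (0.18, -0.03 to 0.40). In tuft-like cells, where the signs differed, both intervals included 0 (-0.08 and 0.09).

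The bases before the annotated start of Anxa2 (chr9:69453433-69453619, plus strand, GRCm38.p6, RefSeq promoter table, outside the annotated gene) are shown because this gene had the largest difference within a type among the annexins and Capn1 with at least 30 UMIs. Capitals mark the GC box GGGCGG, searched on both strands.
Anxa2: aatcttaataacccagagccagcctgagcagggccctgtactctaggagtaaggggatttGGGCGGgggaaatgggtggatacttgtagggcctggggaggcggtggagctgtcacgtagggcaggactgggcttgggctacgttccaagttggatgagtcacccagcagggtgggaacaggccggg
The full window of 250 bases before the RefSeq start of Anxa2 held 3 such boxes and 1 TATAAA. Of its bases 63 lay inside the annotated gene. Only 1 of the boxes lies fully in the bases shown, which hold no TATAAA. Of 32851 windows of 250 bases, 32.7% held a GC box and 12.4% held TATAAA. Promoter windows were found for 9 of the 10 genes, without Anxa6. A match is a description of the letters and not evidence of a bound factor.

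Anxa5 (chr3:36448923-36475894, minus strand), the annexin used to stain dying cells, was highest in enteroendocrine-like cells within the epithelium. It reached 169 CPM (152 to 186) in enteroendocrine-like cells of WT and 156 CPM (139 to 174) in those of MG53-TG, 31.3 and 32.7 CPM in goblet-like cells and 23.6 and 34.8 CPM in secretory progenitor-like cells, while enterocyte-like cells had 1.55 and 1.23 CPM. Outside the epithelium, T cell-like cells had 50.3 CPM in WT and 39.6 CPM in the MG53-TG library, and the 17 myeloid-like WT cells had 199.9 CPM (133 to 289). In the epithelial sum it was 18.9 CPM in MG53-TG against 14.6 CPM in WT (log2 ratio 0.37, 0.27 to 0.47). Goblet-like cells made up 19.1% of kept WT cells and 33.1% of kept MG53-TG cells, and within them the log2 ratio was 0.07 (-0.09 to 0.22). With the 8 types weighted equally it was -0.03. The part of cell make-up in the ratio of the sums was not tested. Anxa5 was past 1.5-fold lower in 2 types with few UMIs, absorptive progenitor-like (87 and 27 UMIs, -0.63, -1.31 to 0.01) and tuft-like cells (21 and 16 UMIs, -1.02, -2.06 to -0.02), a size reached by 3.5% and 3.4% of genes there.

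Anxa6 (chr11:54979108-55033445, minus strand), the largest annexin, was found mainly in enteroendocrine-like cells within the epithelium. These cells held 342 of the 385 epithelial UMIs of WT and 287 of the 295 of MG53-TG, at 153 CPM (137 to 170) and 142 CPM (126 to 159). Every other named epithelial type was at or under 2.32 CPM in both libraries. T cell-like cells had 112 CPM (99.2 to 126) and 108 CPM (90.3 to 129), and the 17 myeloid-like WT cells had 149.9 CPM (92.8 to 229). In the enteroendocrine-like cells the log2 ratio was -0.11 (-0.34 to 0.12).

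Anxa7 (chr14:20455260-20480133, minus strand), annexin A7 or synexin, was the most even over the epithelial types among Anxa2, Anxa5, Anxa6 and Anxa7. Its level ran from 19.7 CPM in Paneth-like to 65.2 CPM in secretory progenitor-like cells of WT, and from 16.4 CPM in Paneth-like to 63.2 CPM in tuft-like cells of MG53-TG. The epithelial sums were 45.2 CPM (43.9 to 46.5) and 46.7 CPM (45.3 to 48.1), and these intervals overlapped. In all 8 types the ratio was within 1.5-fold, from -0.27 to 0.06, with intervals below 0 in stem-like (-0.24) and absorptive progenitor-like cells (-0.21).

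Capn1 (chr19:5988545-6015897, minus strand) was highest in tuft-like cells. These had 102 CPM (89.9 to 115) in WT and 108 CPM (98.5 to 119) in MG53-TG, enterocyte-like cells had 57.3 and 56.0 CPM, and Paneth-like cells had 9.74 and 10.0 CPM. T cell-like cells had 86.0 and 90.3 CPM. The epithelial sums were 40.1 and 44.6 CPM (log2 ratio 0.15, 0.09 to 0.21), and in none of the 8 types did the interval of the ratio exclude 0. Tuft-like cells were 3.30% of kept WT and 5.73% of kept MG53-TG cells.

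**Figure D3:**
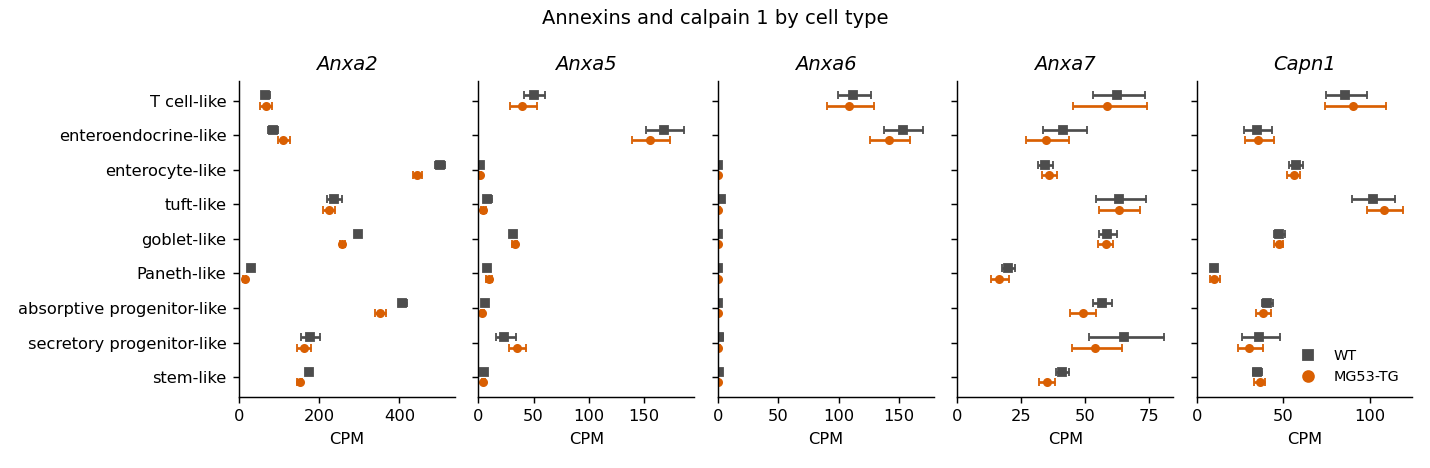
Levels in CPM (horizontal, 1 panel and 1 scale per gene) of 4 annexins and Capn1 in 9 cell types (vertical), with squares for WT, circles for MG53-TG and 95% Poisson intervals of counting error. The pattern over types is alike in both libraries, with Anxa2 highest in enterocyte-like, Anxa5 and Anxa6 in enteroendocrine-like and Capn1 in tuft-like cells.

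Each of these 5 genes kept its pattern over types between the libraries. The Pearson correlation of log2(CPM + 1) over the 8 types was 0.971 for Anxa2, 0.979 for Anxa5, 0.984 for Anxa6, 0.976 for Anxa7 and 0.994 for Capn1. Each value describes 8 points from 1 library per genotype that were clustered together. That of Anxa6 rests on enteroendocrine-like cells, since every other type was at or under 2.32 CPM. The 9 genes other than Trim72 gave 33 combinations of gene and type with at least 30 UMIs, of which 0 were past 1.5-fold higher, 3 past 1.5-fold lower and 30 within. Of all genes, from 2.74% in goblet-like to 7.58% in secretory progenitor-like cells were past 1.5-fold higher, so few were to be expected here. Past 1.5-fold lower were 2.2% of all genes in stem-like, 3.5% in absorptive progenitor-like, 4.04% in enterocyte-like, 3.29% in goblet-like, 17.5% in Paneth-like, 3.4% in tuft-like, 5.97% in enteroendocrine-like and 3.4% in secretory progenitor-like cells.

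**Figure D4:**
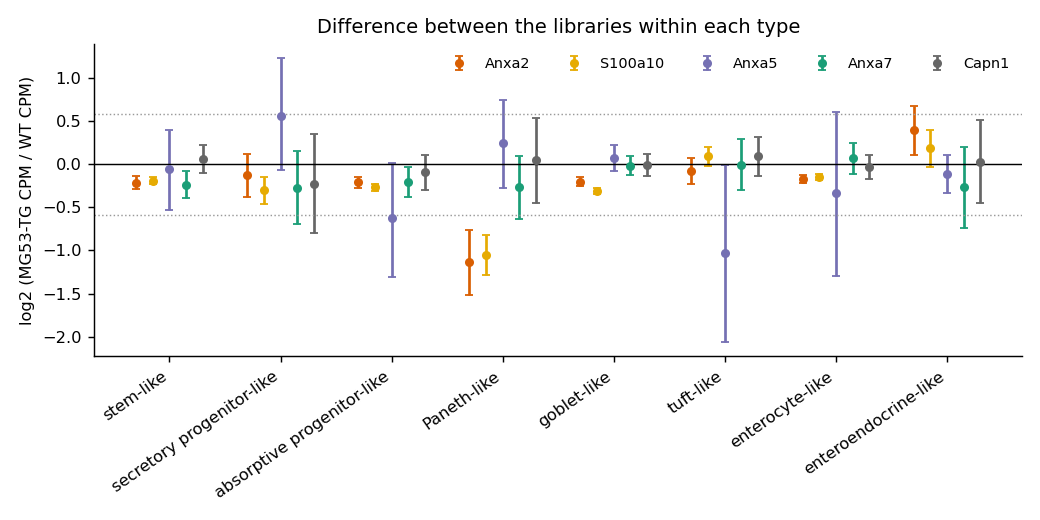
Log2 ratio of MG53-TG over WT (vertical) of Anxa2, its partner S100a10, Anxa5, Anxa7 and Capn1 in 8 epithelial types (horizontal), with 95% intervals of counting error. Dotted lines mark 1.5-fold. Anxa2 and S100a10 lie below the lower line in Paneth-like cells (-1.13 and -1.05), and the other points outside the lines are Anxa5 in absorptive progenitor-like (-0.63) and tuft-like cells (-1.02).

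Other genes of membrane repair were read from 7 lists with 71 genes, of which 62 had at least 30 UMIs in the epithelial sum. Of these, 6 were past 1.5-fold higher in MG53-TG, 2 were past 1.5-fold lower and 54 were within, against 6.85% and 2.96% of all genes. Above 0 were 50 of the 62 (80.6%) and below 0 were 12, with a median log2 ratio of 0.17, whereas 64.7% of all genes lay above 0 with a median of 0.09. With the 8 named types weighted equally, 34 of the 62 (54.8%) lay above 0 and 28 below, with a median of 0.02, against 57.8% and 0.03 over all genes. The 18 genes of the ESCRT machinery, which pinches off damaged membrane, had 0 past 1.5-fold and a median of 0.13, and the 14 genes of lysosomal and vesicle fusion had 0 and a median of 0.25. All 3 S100 partners of annexins were within 1.5-fold, with S100a6 at 0.25, S100a11 at 0.25 and S100a10 at -0.21.

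Of the other annexins Anxa3 was past 1.5-fold (log2 ratio 0.89), and the remaining 5 that could be read were within. Among ferlins, the family of dysferlin, Fer1l6 (0.87) and Myof, the gene of myoferlin (0.71), were past 1.5-fold and Fer1l4 was within. In the calpain system Capn9 (0.78) and Capn8 (0.72), calpains known from the gastrointestinal tract, were higher. Capn12, with 25 UMIs in the WT sum against 11, had a log2 ratio of -0.95 whose counting interval of -2.12 to 0.13 held 0. In the list of caveolae and membrane bending Pacsin1 (0.80) was higher and Pacsin3 (-0.60) lower, while Cav3, Cavin2 and Cavin3 had 0 UMIs. Cav2, the gene of caveolin-2, had 38 UMIs (0.359 CPM) in the WT sum against 32 (0.356 CPM) in that of MG53-TG, and Cavin4 had 16 against 15, both within 1.5-fold.

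Of these 6 higher genes, 5 had their highest level in goblet-like cells, and there their ratios were within 1.5-fold. Fer1l6 was at 208 CPM in WT goblet-like cells and at 221 CPM in those of MG53-TG (log2 ratio 0.09), Capn9 176 and 182 CPM (0.05), Myof 76.1 and 77.6 CPM (0.03), Capn8 47.2 and 50.3 CPM (0.09) and Anxa3 40.5 and 46.2 CPM (0.19). At lower levels, Fer1l6 was past 1.5-fold in enterocyte-like cells (1.76 and 4.93 CPM), as was Myof in tuft-like cells (6.58 and 17.7 CPM). Pacsin1 was at 11.6 and 14.8 CPM in enteroendocrine-like cells and at most at 2.18 CPM in every other type. Goblet-like cells were 19.1% of WT and 33.1% of MG53-TG cells. The part of these shares in the epithelial sums was not tested. With the 8 named types weighted equally, 0 of the 62 genes were past 1.5-fold, and Capn12 and Pacsin3 turned to 0.14 and 0.26.

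**Figure D5:**
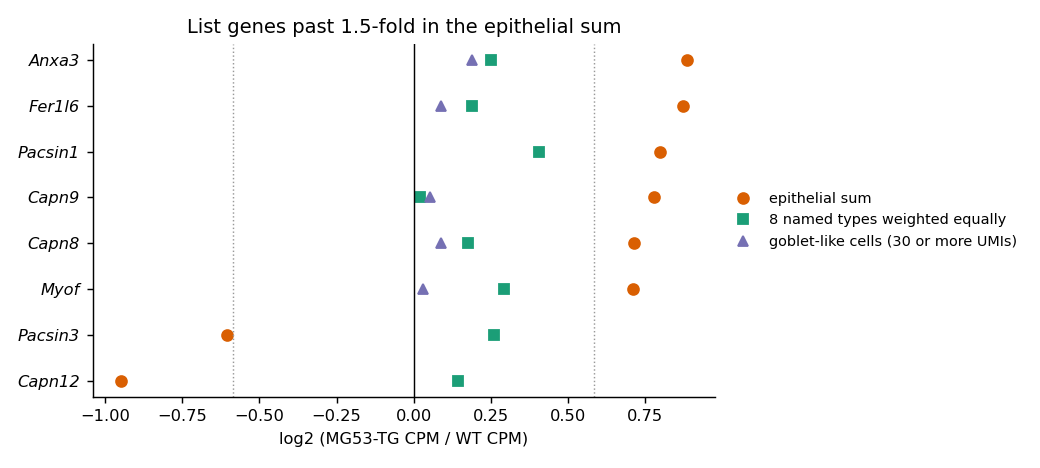
Log2 ratio of MG53-TG over WT (horizontal) of the 8 further membrane repair genes past 1.5-fold in the epithelial sum (vertical). Circles show the epithelial sum, squares the mean of 8 types weighted equally and triangles goblet-like cells where at least 30 UMIs were counted, and dotted lines mark 1.5-fold. The 6 genes higher in the sum (0.71 to 0.89) lie between 0.02 and 0.41 with equal weights.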

How the data were processed

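The 2 single-cell libraries analysed were 1 from WT and 1 from MG53-TG mice. The deposited values were counts of UMIs per gene and barcode, made by the authors with Cell Ranger (per the file headers, version 4 in the WT table and 6.0.1 in the other). The submitters' processing notes name mm10 and Seurat. The WT table held 2005718 barcodes down to 1 UMI, and that of MG53-TG held 12361 down to 500, so table processing coincides with genotype. From these counts, cells were kept at 1354 UMIs (the inflection of the WT barcode rank curve), 200 genes and 25% mitochondrial UMIs. Doublet scores (Scrublet in scanpy 1.11.5) removed the highest-scoring barcodes at 0.8% per 1000 barcodes of the library, 438 WT and 212 MG53-TG cells, since the automatic threshold marked 0.0135% and 0.0388%. Both libraries were clustered together without integration (2000 variable genes without the 10 genes described, 30 components, 15 neighbours, Leiden resolution 1). A cluster was named X-like from at least 3 markers detected in 10% of its cells at 1.5 times the level elsewhere, unless markers of another type led its 10 top genes (2 clusters) or it was shallow with none of its own there (1 cluster).

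UMIs were summed per library and type. Intervals at 95% were Poisson for sums, conditional binomial for ratios and Clopper-Pearson for shares. A gene counted as past 1.5-fold with 30 UMIs over both libraries, and with WT at 0 a bound was computed from 3 UMIs in the WT cells of that type. Functions were tested on simulated data. Positions are from GENCODE M21 (GRCm38). The 10 genes, the further lists, the markers and the rule for named genes (all 10 genes, at most the 2 highest and 2 lowest of each list past 1.5-fold, the 5 genes most like Trim72, its neighbours, and S100a10) were chosen with earlier results of these data known. Genes that lead a cluster, markers, and the list genes that could not be read or lay within 1.5-fold are named outside that rule. Alternatives covered the UMI minimum, mitochondrial limit, doublets, weights of cells and types, scaling, thinning, shared barcodes, gene minimum and clustering resolution.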

Additional observations from a re-analysis of the deposited data

Results flagged for a closer look

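Anxa2 differed in opposite directions between cell types, which was not tested, since each genotype has 1 library. Its log2 ratio of MG53-TG over WT had a counting interval above 0 in enteroendocrine-like cells (0.39) and below 0 in stem-like (-0.22), absorptive progenitor-like (-0.21), enterocyte-like (-0.17), goblet-like (-0.20) and Paneth-like cells (-1.13).

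Trim72 was also found in barcodes outside the epithelial sums. In MG53-TG, barcodes with 500 UMIs up to the minimum and at most 25% mitochondrial UMIs held 40.8 CPM (23.8 to 65.4), and barcodes at or above the minimum with over 25% mitochondrial UMIs held 43.0 CPM (40.6 to 45.4), against 1.34 CPM (0.0340 to 7.48) and 0.173 CPM (0.0472 to 0.444) in the same barcodes of WT. T cell-like cells of MG53-TG held 49.0 CPM, with 0 UMIs in those of WT.

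In the WT library, barcodes with 1 to 99 UMIs, a depth at which the MG53-TG table lists no barcode, held 52 Trim72 UMIs, or 8.70 CPM (6.50 to 11.4), against 0.595 CPM in WT epithelial cells. Barcodes whose sequence is also in the MG53-TG table, at 500 UMIs or more there, were 0.808% of these barcodes and held 5.12% of their UMIs but 21.2% of their Trim72 UMIs (11 of 52), at 35.9 CPM (17.9 to 64.3), and 10 of these 11 UMIs lay in barcodes that carry Trim72 in MG53-TG. The remaining barcodes with 1 to 99 UMIs were at 7.23 CPM (5.19 to 9.81). Of the 6963 kept WT cells 15 (0.215%) share a barcode with the MG53-TG table, too few to compare their Trim72 level with that of the other cells. Where the Trim72 UMIs of WT came from was not tested.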

How the results depend on the processing

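No paired analysis was possible because each genotype has 1 library. Leaving out a library would leave no comparison.

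The log2 ratio of Trim72 in the epithelial sum kept its direction under all 10 alternatives (6.26 to 7.07), with 7.07 when the 8 types were weighted equally. By type it stayed past 1.5-fold higher under all 32 alternatives of clustering, scaling and doublets. With no doublets removed, WT held Trim72 UMIs in tuft-like and secretory progenitor-like cells, where the log2 ratios were then 7.94 and 6.19. The count of the 10 genes past 1.5-fold was 1, and it was 2 with the mean of single-cell CPM, which adds Cavin1 (0.81), and 2 with no gene minimum, which adds Anxa1 (-1.35, at 6 and 2 UMIs). The median of the genes other than Trim72 ran from -0.14 to 0.05 over 12 alternatives, so its sign is not settled. The count of further membrane repair genes past 1.5-fold, 8, was 0 with types weighted equally and 4 after thinning, and at most 10 over the 12 alternatives. The thinned share of MG53-TG cells with Trim72, 7.77%, was 39.7% with no thinning, 6.54% with at most 10% mitochondrial UMIs and 6.86% with no doublets removed, the last within the range of 20 thinnings (6.82% to 7.99%). The cause of these shifts was not tested, apart from thinning, which changes the UMIs counted, and the gene minimum, which changes the genes read.

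Intervals cover counting error only. The spread between mice, and the differences in program version and barcode filtering between the libraries, cannot be told apart from genotype. Genes at 0 UMIs are not detected at this depth.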

Other observations

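Genes at or near 0 in kept cells were also looked for in the WT barcodes below the UMI minimum. Cav1, with 0 UMIs in kept cells, had 3 UMIs among WT barcodes with 1 to 99 UMIs, and Anxa1 had 6. Dysf had 0 UMIs at every barcode depth of the WT table.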
